A study of Mus musculus with 6 samples.

Results

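The 9 genes described here encode enzymes that restrain signalling by the T-cell receptor: the tyrosine phosphatases Ptpn2, Ptpn6, Ptpn7, Ptpn11, Ptpn22 and Ptprj, the Sts proteins Ubash3a and Ubash3b, and the lipid phosphatase Inpp5d. They were chosen by symbol from a list, and all 9 were found among the 11162 genes of the table. RNA had been sequenced from naive CD8 T cells of mouse spleen, in 3 libraries of cells with high and 3 of cells with low fluorescence of a reporter. Both groups came from mice with the transgene Tg(Nr4a1-EGFP)GY139Gsat, called Nur77-GFP, in which green fluorescent protein is driven by regulatory sequence of Nr4a1, a gene switched on by T-cell receptor signals. Both were sorted as OT-I cells that were CD8+, CD44lo, CD62Lhi and Qa2hi. OT-I is a transgenic T-cell receptor of a single specificity. They differed only in the last gate, Nur77-GFPhi or Nur77-GFPlo, and are called GFP-hi and GFP-lo. No treatment, age or time point was given in the labels. Nor do they say whether the libraries of a group came from separate mice, so p-values measure the spread between these samples, which may be technical. Replicate numbers follow the order of the sample records, name libraries only and do not tie a GFP-hi to a GFP-lo library.

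When the T-cell receptor is engaged, the kinases Lck and Fyn phosphorylate the receptor's CD3 and zeta chains, Zap70 binds there and is phosphorylated in turn, and adaptors, lipid kinases and the mitogen-activated kinases Erk follow. Phosphatases reverse these steps. In naive cells they hold down the weak, continuous signal from self-peptides, and the brightness of Nur77-GFP is widely used as a record of such signals. Ptpn22 and Ptpn2 act on Lck, Ubash3a and Ubash3b on Zap70, Inpp5d on the membrane lipid made by phosphoinositide 3-kinase, and Ptpn7 on Erk.

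Of the 9 genes 8 were tested, and Ubash3b, the gene of Sts-1, was the only 1 to pass (limma, adjusted p under 0.05). Over all genes tested 3.95% passed. The Ubash3b call was kept in 15 of 20 alternative fits. Ubash3b was higher in GFP-hi cells, by a factor of 1.41 in mean RPKM. Its close relative Ubash3a, the gene of Sts-2, was not higher there. The other tested genes had differences whose 95% intervals included 0. Because only Ubash3b passed, the 250 bases before an annotated start of this gene are shown first. Ubash3b lies on the minus strand of chromosome 9, from 41010760 to 41161692 of GRCm38.p6 (the build also called mm10). The 250 bases lie inside that span, and the gene has other annotated starts. The RefSeq sequence of chr9:41158063-41158312, read 5′ to 3′ on the gene's strand, was as follows, with capitals marking TTTCC, the reverse complement of the core bases GGAAA bound by NFAT, the calcium-dependent factor of T-cell activation.
Ubash3b: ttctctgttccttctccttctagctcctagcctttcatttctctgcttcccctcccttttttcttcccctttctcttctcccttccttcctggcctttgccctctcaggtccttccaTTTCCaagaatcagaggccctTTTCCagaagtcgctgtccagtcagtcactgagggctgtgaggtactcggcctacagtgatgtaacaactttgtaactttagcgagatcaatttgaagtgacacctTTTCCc

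The window overlapped 0 exons in GENCODE M21, and GENCODE places 4 exons of other Ubash3b transcripts farther upstream. It held 3 matches to GGAAA, beginning 133, 112 and 6 bases before the start, all in reverse orientation. At least 1 match to GGAAA was present in 55.6% of all 32851 windows of 250 bases in the table, so such matches are common. Both strands were also searched for AAAGGTCA, the NBRE bound by Nr4a proteins (in 1.3% of all windows), for the AP-1 motif TGANTCA (6.7%) and for the EGR motif GCGTGGGCG (0.5%). None of these 3 was found in the window, nor in any of the windows of the 8 genes that had an entry. No 2 of the matches in the printed window overlapped. The single window of Ubash3a held 0 matches to GGAAA and the second start of Ubash3b held 1. A match is only a run of letters, and its absence says nothing of binding elsewhere.

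Library depth, recovered from the step that a single read makes in the values, was 26160000 to 35940000 reads, so that 1 RPKM (reads per kilobase of gene, scaled to library size) stood for 26.16 to 35.94 reads over 1 kilobase. CD8 T cell identity was checked with a marker list, of which 7 of 8 genes were listed in the table. Their summed level was 1789 to 1901 RPKM in GFP-hi and 1764 to 1812 RPKM in GFP-lo libraries. The CD4 T cell gene Cd40lg was at 14.2 to 22.7 RPKM in GFP-hi and 35.4 to 46.8 RPKM in GFP-lo. It was the only 1 of 4 genes of the CD4 T cell list in the table, which did not hold Cd4, Zbtb7b or Foxp3. A share of CD4 T cells was not estimated from Cd40lg. Of 8 B cell genes, 3 were listed, with a sum of 12.6 to 14.2 RPKM in GFP-hi and 11.0 to 11.4 RPKM in GFP-lo, almost all of it from Cd79b. Ms4a1, which defines B cells more narrowly, was at 0.084 to 0.597 RPKM. Of the myeloid, NK cell, erythroid and thymocyte genes, 3 of 9, 0 of 6, 1 of 6 and 2 of 4 were listed. The myeloid sum was 20.5 to 25.8 RPKM in GFP-hi and 20.6 to 22.5 RPKM in GFP-lo, mostly from Cst3. The erythroid sum was 0.047 to 1.94 and 0.393 to 1.48 RPKM, and the thymocyte sum 1.47 to 2.09 and 1.77 to 2.59 RPKM. Nr4a1 (log2 difference 0.02, limma adjusted p = 0.98) and the GFP transcript (0.15, adjusted p = 0.42) gave no check of the sort. The heat-shock genes Hspa1a and Hspa1b stood apart in the libraries numbered 2 of both groups, with Hspa1a at 1100 and 1234 RPKM against at most 235 RPKM in the other 4.

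Levels of the 9 genes, which RPKM puts on a scale per length, spanned a wide range. Ptpn6 was the most abundant, at 173 to 189 RPKM over the 6 libraries, above 99.3% of all listed genes by its mean. Ptpn22 followed at 83.9 to 88.0 RPKM. Ptpn2 (23.2 to 26.9 RPKM), Ubash3a (20.7 to 24.6 RPKM) and Inpp5d (19.3 to 24.0 RPKM) had overlapping ranges, and their order cannot be told. Ptpn7 lay below them at 12.7 to 17.7 RPKM, then Ubash3b at 5.07 to 8.42 RPKM and Ptpn11 at 2.56 to 3.60 RPKM. Ptprj was the lowest, at 0.116 to 0.611 RPKM. Apart from the group of Ptpn2, Ubash3a and Inpp5d, the ranges of neighbours in this order did not overlap.

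**Figure D1:**
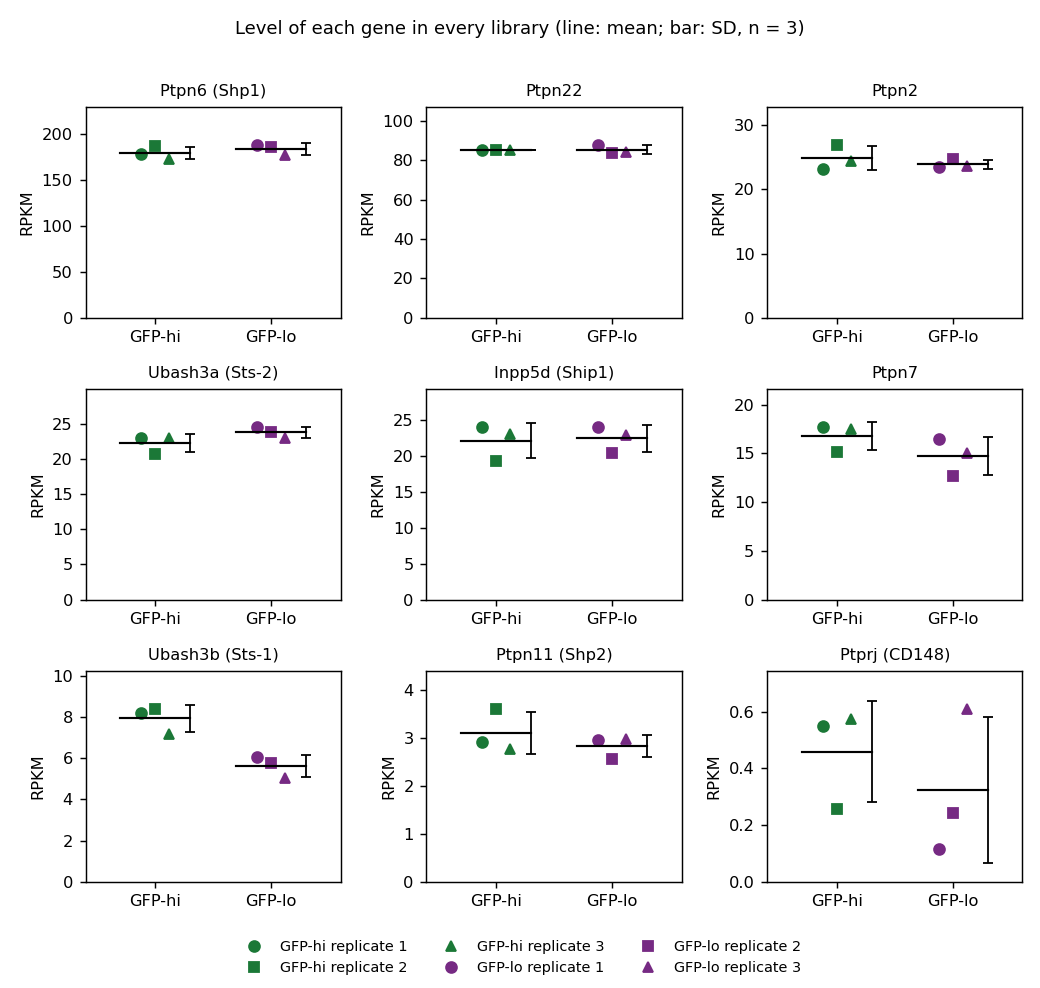
RPKM of each of the 9 genes in every library, with its own vertical axis starting at 0; green points are GFP-hi and purple points GFP-lo libraries, the shape gives the replicate number, the line is the mean and the bar the SD (n = 3). The 3 GFP-hi points of Ubash3b, from 7.21 to 8.42 RPKM, all lie above the 3 GFP-lo points, from 5.07 to 6.08 RPKM. The groups overlap for the other 8 genes. Over all genes tested, 26.9% had groups that did not overlap, in either direction.

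Of the 9 genes, 8 had a mean of at least 1 RPKM and were tested with limma among 9351 genes. One of them, Ubash3b, was higher in GFP-hi and none was lower at an adjusted p under 0.05. Over all genes tested, 3.95% passed this threshold, 2.46% higher and 1.49% lower in GFP-hi (230 and 139 genes). This split depends on scaling, and was 203 higher and 187 lower with trimmed mean of M values and 251 and 263 with the trend with transcript length removed; Ubash3b was the 1 member called in both. The groups did not overlap for 1 of the 8 genes, against 26.9% of all genes tested, and 1 of the 8 had an unadjusted p under 0.05, against 20.2% of all genes. The median log2 difference of the 8 genes was 0.03, against 0.02 over all genes tested, and 4 of the 8 were positive. The median absolute difference was 0.07 for the 8 genes and 0.09 for all genes tested. Differences are given throughout as GFP-hi minus GFP-lo on the log2(RPKM + 1) scale, on which changes at low RPKM come out too small.

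**Figure D2:**
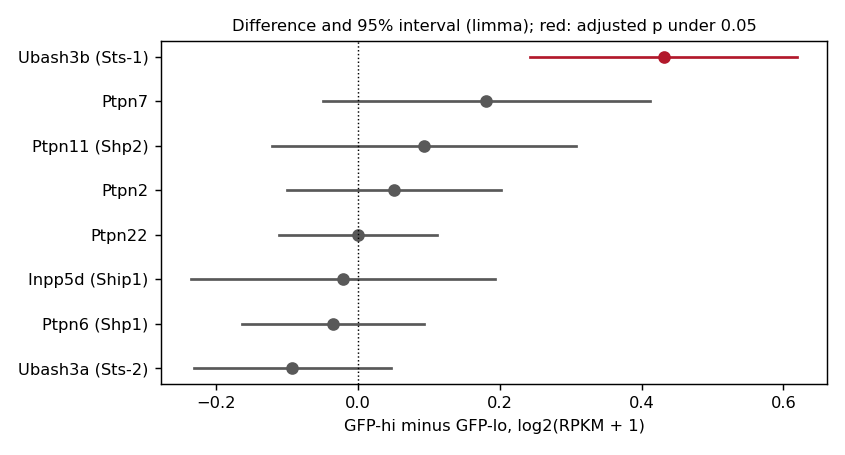
Difference between GFP-hi and GFP-lo for the 8 tested genes on the log2(RPKM + 1) scale, with its 95% interval from limma; red marks an adjusted p under 0.05. Ubash3b at 0.43 stands apart from 0, and the intervals of the other 7 genes, from Ubash3a at -0.09 to Ptpn7 at 0.18, include 0.

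Among the Sts proteins, which bind ubiquitin and carry a phosphatase domain of the histidine type, Sts-1 is the more active enzyme and removes phosphate from Zap70. Ubash3b (Entrez 72828) had 8.19, 8.42 and 7.21 RPKM in the GFP-hi libraries and 6.08, 5.75 and 5.07 RPKM in the GFP-lo libraries. All 3 GFP-hi libraries were above all 3 GFP-lo libraries. Such separation, in either direction, was found for 26.9% of all genes tested. On average GFP-hi cells had 7.94 ± 0.644 RPKM and GFP-lo cells 5.63 ± 0.517 RPKM (SD, n = 3 each), a ratio of 1.41. Limma gave a log2 difference of 0.43 (standard error 0.082, 95% interval 0.24 to 0.62, adjusted p = 0.028). By p-value Ubash3b was at place 247 of the 9351 genes. These values rested on 132.5 to 285.8 reads per kilobase of transcript. In a sorted population more Ubash3b-positive cells and more Ubash3b RNA per cell cannot be told apart.

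The sign of this difference was positive in all 20 alternative fits, from 0.37 to 0.49, but the call was not secure. It was lost when replicate 1 or replicate 2 of GFP-hi was left out (limma adjusted p = 0.10 and 0.065), and likewise for replicate 2 or replicate 3 of GFP-lo (0.091 and 0.094). Without both libraries numbered 2, which were high in heat-shock RNA, the difference was 0.41 (limma, adjusted p = 0.15). With the Hspa1a and Hspa1b level as a covariate limma gave 0.45 (adjusted p = 0.021). The B cell gene Cd79b was also higher in GFP-hi, at 13.1 ± 1.04 RPKM beside 10.8 ± 0.329 RPKM in GFP-lo (SD, n = 3 each; adjusted p = 0.075 by limma), and its part in the Ubash3b result was not tested.

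**Figure D3:**
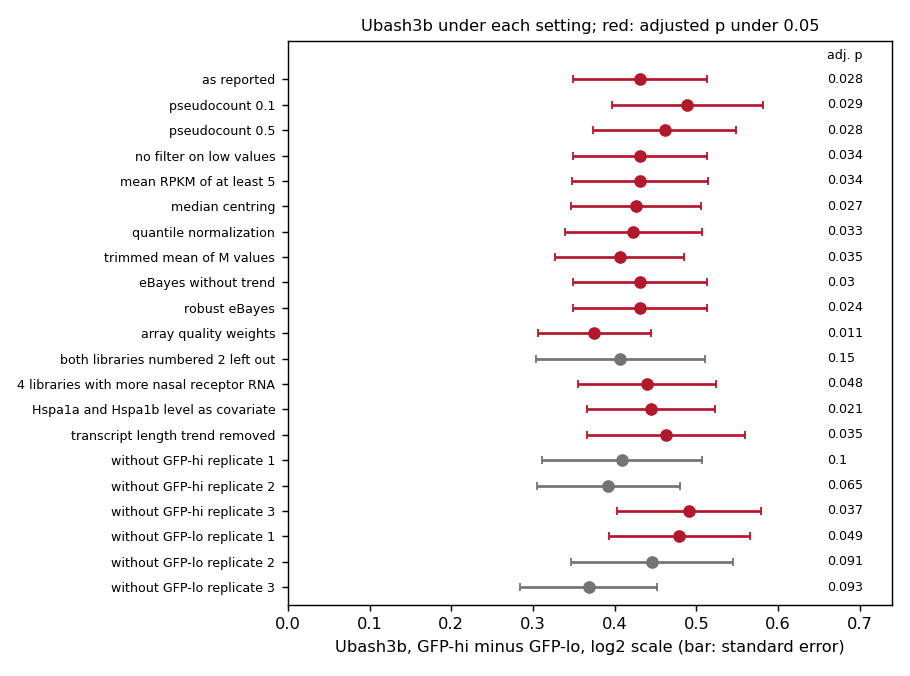
Ubash3b difference between GFP-hi and GFP-lo, on the log2 scale, as reported and in 20 alternative fits, with standard errors as bars and the limma adjusted p printed at the right; red marks an adjusted p under 0.05. All values lie between 0.37 and 0.49, and 15 of the 20 alternatives pass the threshold.

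Ubash3a (Entrez 328795; chromosome 17, 31207868 to 31259681, plus strand) encodes Sts-2, which is found mainly in lymphocytes and has weak phosphatase activity. It had 23.0, 20.7 and 23.0 RPKM in GFP-hi and 24.6, 23.8 and 22.9 RPKM in GFP-lo libraries. The groups overlapped, with GFP-hi replicate 2 the lowest of the 6. Mean levels were 22.2 ± 1.29 and 23.8 ± 0.810 RPKM (SD, n = 3 each), and the log2 difference was -0.09 (95% interval -0.23 to 0.05, limma adjusted p = 0.45). The interval leaves out a rise of the size seen for Ubash3b.

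The Sts genes were also read as a pair. Ubash3a and Ubash3b together had 31.2, 29.1 and 30.2 RPKM in GFP-hi and 30.6, 29.5 and 28.0 RPKM in GFP-lo libraries, and the groups overlapped. Ubash3b made up 26.3%, 28.9% and 23.9% of that sum in GFP-hi and 19.8%, 19.5% and 18.1% in GFP-lo libraries. Every GFP-hi share was above every GFP-lo share. Mean shares were 26.4% ± 2.50 and 19.1% ± 0.927 (SD, n = 3 each). The log2 ratio of Ubash3a to Ubash3b was 1.38 ± 0.170 in GFP-hi and 1.90 ± 0.0686 in GFP-lo, a difference of -0.52 (exact permutation test, two-sided p = 0.10, adjusted over 3 ratios to 0.15). With 3 libraries against 3 this is the smallest p the test can give.

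**Figure D4:**
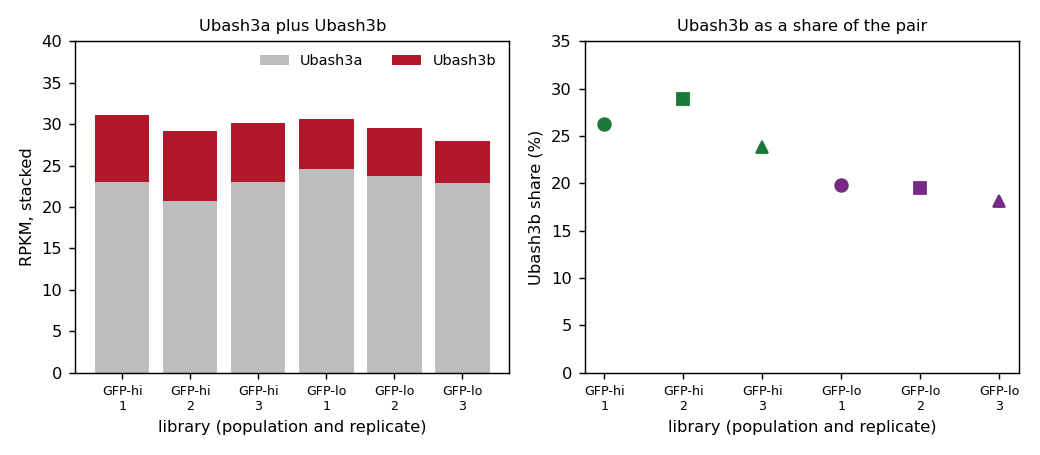
Left, stacked bars of Ubash3a (grey) and Ubash3b (red) RPKM in each of the 6 libraries; right, Ubash3b as a percentage of their sum, with green points for GFP-hi and purple points for GFP-lo libraries. Bar heights range from 28.0 to 31.2 RPKM over the 6 libraries, while the share is 23.9% to 28.9% in GFP-hi and 18.1% to 19.8% in GFP-lo.

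The phosphatases with a pair of SH2 domains, Shp1 and Shp2, are drawn to phosphorylated inhibitory motifs of surface receptors. Shp1 is the inhibitory one in lymphocytes, while Shp2 also supports growth factor signals through Ras. Ptpn6 (Entrez 15170; chromosome 6, 124720707 to 124738709, minus strand), the gene of Shp1, had 179, 187 and 173 RPKM in GFP-hi and 189, 187 and 177 RPKM in GFP-lo libraries. The groups overlapped, with the lowest library in GFP-hi and the highest in GFP-lo. Its log2 difference was -0.04 (95% interval -0.16 to 0.09, limma adjusted p = 0.79). In GENCODE M21 an exon of Gm20531 on the opposite strand shares 195 bases with Ptpn6, and reads there may belong to either. Ptpn11, the gene of Shp2, had 2.91, 3.60 and 2.77 RPKM in GFP-hi and 2.96, 2.56 and 2.97 RPKM in GFP-lo libraries. GFP-hi replicate 2 was the highest and GFP-lo replicate 2 the lowest, both libraries high in heat-shock RNA. The log2 difference was 0.09 (95% interval -0.12 to 0.31, limma adjusted p = 0.64), and it was -0.05 without both of those libraries. Ptpn6 exceeded Ptpn11 by a ratio of 51.9 to 62.6 in GFP-hi and 59.7 to 72.8 in GFP-lo libraries. The log2 ratio differed by -0.13 between the populations (exact permutation test, two-sided p = 0.30, also 0.30 when adjusted over 3 ratios).

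Neither of the phosphatases that act on Lck inside the cell passed the test. Ptpn22 (Entrez 19260; chromosome 3, 103856575 to 103912252, plus strand) encodes a phosphatase that works with the kinase Csk on Lck and Zap70. It had 85.1, 85.5 and 85.5 RPKM in GFP-hi and 88.0, 83.9 and 84.3 RPKM in GFP-lo libraries. The GFP-hi libraries lay within the range of the GFP-lo libraries. Its log2 difference was -0.00048 (95% interval -0.11 to 0.11, limma adjusted p = 1.00), and its residual spread was above that of 2.0% of tested genes. As a fold this interval runs from 0.925 to 1.08.

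Ptpn2 encodes a phosphatase that acts on Lck and on the cytokine receptor kinases Jak1 and Jak3. It had 23.2, 26.9 and 24.5 RPKM in GFP-hi and 23.4, 24.7 and 23.6 RPKM in GFP-lo libraries. The groups overlapped, and GFP-hi replicate 2 was the highest. The log2 difference was 0.05 (95% interval -0.10 to 0.20, limma adjusted p = 0.73). Its nearest relative Ptpn1 was slightly more abundant, and the ratio of Ptpn2 to Ptpn1 was 0.793, 0.797 and 0.817 in GFP-hi and 0.733, 0.771 and 0.758 in GFP-lo libraries. The 3 GFP-hi ratios were above the 3 GFP-lo ratios. The log2 ratio differed by 0.09 (exact permutation test, two-sided p = 0.10, adjusted over 3 ratios to 0.15). Here too 0.10 is the smallest p that this test can give with 3 libraries against 3, so it could not pass 0.05.

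Ptprj encodes CD148, a receptor-like phosphatase of Src-family kinases that T cells are known to acquire after activation. It had 0.551, 0.255 and 0.573 RPKM in GFP-hi and 0.116, 0.243 and 0.611 RPKM in GFP-lo libraries. The highest and the lowest library were both GFP-lo. These levels rest on 4.2 to 16.9 reads per kilobase, and Ptprj was left out by the filter on low values. With no filter its log2 difference was 0.15 (standard error 0.158, limma adjusted p = 0.72), so no difference was detectable at this depth.

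Downstream of the receptor, Ptpn7 encodes the haematopoietic phosphatase that inactivates Erk and p38. It had 17.7, 15.1 and 17.5 RPKM in GFP-hi and 16.5, 12.7 and 15.0 RPKM in GFP-lo libraries. The libraries numbered 2 were the lowest of their group, and the groups overlapped because GFP-hi replicate 2 lay below GFP-lo replicate 1. The log2 difference was 0.18 (95% interval -0.05 to 0.41, limma adjusted p = 0.37). It was positive in all 20 alternative fits and passed the threshold in 1, that with array quality weights (0.29, limma adjusted p = 0.036). Residual spread of Ptpn7 was above that of 85% of tested genes.

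Inpp5d encodes Ship1, which removes a phosphate from the lipid product of phosphoinositide 3-kinase. It had 24.0, 19.3 and 23.0 RPKM in GFP-hi and 24.0, 20.3 and 22.8 RPKM in GFP-lo libraries. The groups overlapped, and the library numbered 2 was the lowest in each. Those are the libraries high in heat-shock RNA. The log2 difference was -0.02 (95% interval -0.24 to 0.19, limma adjusted p = 0.93). Without both libraries numbered 2 it was 0.0044 with a standard error of 0.0603.

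Related genes were then read from lists. Of 23 other tyrosine phosphatases 16 were tested, and none was higher and none lower in GFP-hi by limma at an adjusted p under 0.05. Over all tested genes 3.95% were called, so few calls can be looked for in lists of this size. There were 6 at an unadjusted p under 0.05 (20.2% of all tested genes were), and the median log2 difference was -0.03. The groups did not overlap for 3 of the 16, where 26.9% of all tested genes had separate groups. The lowest p-values were those of Dusp22, a phosphatase reported to act on Lck (4.49 ± 0.390 RPKM in GFP-hi and 2.96 ± 0.768 in GFP-lo, SD, n = 3 each; limma adjusted p = 0.083), and of Ptpra, a receptor-like phosphatase of Src-family kinases (23.3 ± 0.177 RPKM and 26.5 ± 0.923, SD, n = 3 each; limma adjusted p = 0.099). Dusp22 passed with array quality weights and without GFP-lo replicate 3 (log2 difference 0.64, limma adjusted p = 0.018). Of 15 other phosphoinositide phosphatases 13 were tested, with none higher, none lower by limma, 2 at an unadjusted p under 0.05, 5 without overlap and a median of -0.0091. Inpp5a (log2 difference -0.25, limma adjusted p = 0.13) and Inpp4b (-0.18, adjusted p = 0.18) had the lowest p-values.

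Of 20 adaptors and kinases that work with the phosphatases 16 were tested, with 1 higher and none lower (3.95% of all tested genes were called). An unadjusted p under 0.05 was found for 3 (20.2% of all tested genes), and 4 were without overlap (26.9%). Their median was 0.0056. The 1 higher gene was Sh2d1a, which encodes SAP, an adaptor that competes with SH2 phosphatases for Slam-family receptors. It had 9.11, 10.1 and 10.5 RPKM in GFP-hi and 7.17, 7.62 and 8.21 RPKM in GFP-lo libraries, without overlap. Its log2 difference was 0.33 (standard error 0.072, limma adjusted p = 0.048). The sign held in all 20 alternatives, but the threshold was passed in 5 of them, and in none of the 6 that left out 1 library (adjusted p from 0.067 to 0.17). Of the 23 kinases, receptor chains and factors on which the phosphatases act, all 23 were tested and none was higher or lower by limma. There were 4 at an unadjusted p under 0.05 (20.2% of all tested genes) and 5 without overlap (26.9%), with a median of 0.03. Fyn (log2 difference 0.17, limma adjusted p = 0.12) and Cd3g (0.16, adjusted p = 0.17) had the lowest p-values.

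The last list was drawn up as receptors that recruit Shp1, Shp2 or Ship1. It includes Cd160, for which such recruitment was not checked. Of its 20 genes 8 were tested, with 1 higher, which was Cd160, and 1 lower (2.46% and 1.49% of all tested genes were). There were 7 at an unadjusted p under 0.05 (20.2% of all tested genes were), 6 without overlap (26.9% of all tested genes) and a median of 0.22. Of the 8, 2 had a mean of 1 RPKM or more only through the group where they were high, Lair1 through GFP-lo and Pdcd1, the gene of the receptor PD-1, through GFP-hi (1.52 against 0.791 RPKM), so these counts and this median support nothing about the list. Cd160, which encodes a receptor for HVEM with inhibitory function, passed in all 20 alternatives. It had 27.8, 25.1 and 24.0 RPKM in GFP-hi and 13.9, 12.2 and 11.3 RPKM in GFP-lo libraries (log2 difference 0.98, limma adjusted p = 0.0014). Lair1, a collagen receptor with inhibitory motifs, had 0.869, 0.715 and 0.723 RPKM in GFP-hi and 1.36, 1.23 and 1.33 RPKM in GFP-lo libraries (log2 difference -0.38, limma adjusted p = 0.033). Lair1 kept its call in 11 of 19 alternatives and in none of the 6 that left out 1 library (limma adjusted p from 0.074 to 0.13). With no filter on low values limma gave -0.385 (adjusted p = 0.041). As Lair1 lay near the filter and reached it only through GFP-lo, its call is described here and not used as support. The list was drawn up with earlier results of these data known, so its direction is not independent evidence.

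**Figure D5:**
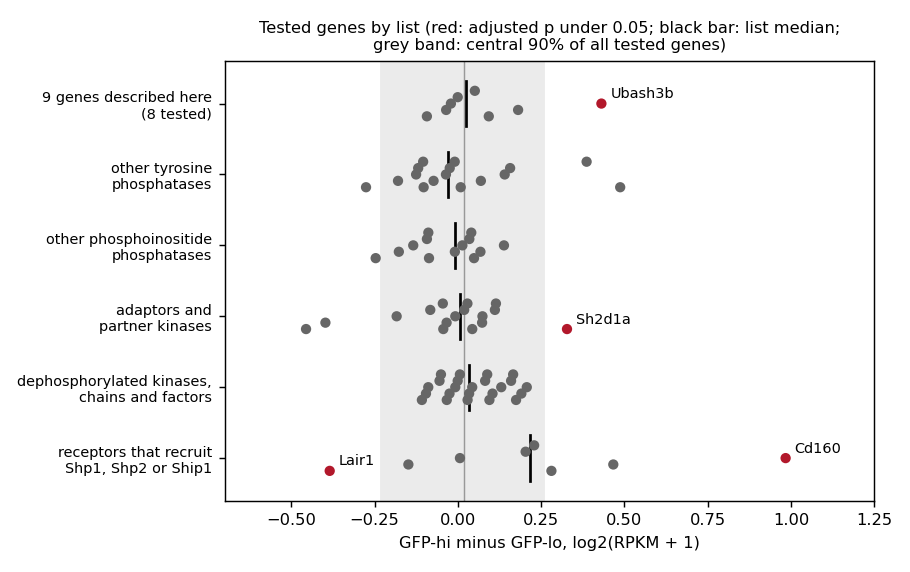
Difference between GFP-hi and GFP-lo on the log2(RPKM + 1) scale for each tested gene, in rows by list; red points have an adjusted p under 0.05, black bars are list medians, the grey line is the median of all tested genes and the grey band holds the central 90% of them, from -0.23 to 0.26. Ubash3b, Sh2d1a, Cd160 and Lair1 are the named red points. The receptor row includes Lair1 and Pdcd1, which reached the filter through 1 group only, and Cd160, for which recruitment of these phosphatases was not checked.

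Across the 6 libraries, genes were ranked by how closely their log2(RPKM + 1) followed Ubash3b, among 6411 genes with a mean of at least 5 RPKM. The closest were St3gal1, a sialyltransferase gene (Pearson's r = 0.9996), Gabrr2, a gene of a GABA receptor subunit (0.9987), and Stn1, a gene of telomere maintenance (0.9978). The most opposed were Lsg1, a ribosome biogenesis gene (-0.9967), Tlr1, a receptor for bacterial lipoproteins (-0.9905), and the chemokine receptor gene Cxcr3 (-0.9893). St3gal1 had 8.22, 8.49 and 7.26 RPKM in GFP-hi and 6.04, 5.67 and 4.89 RPKM in GFP-lo libraries. Lsg1 moved far less, from 11.4 to 11.5 RPKM in GFP-hi and from 11.6 to 11.8 RPKM in GFP-lo. These r values describe 6 libraries that share their groups and were picked as extremes of a long ranking.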

How the data were processed

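The authors deposited 1 table of RPKM values, per the file headers, with 1 column for each of the 6 samples; STAR and mm10 are named in the submitters' processing notes, and the read counter, annotation and rule for listing genes are not given in the sources used here. Per the labels' protocols, RNA went through SMART-seq v4 cDNA synthesis and Nextera XT library preparation. The labels give no batch, mouse or pair. Symbols of 15 genes were looked up by Entrez ID in RefSeq, of which 1 was left without a symbol.

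Genes with a mean of at least 1 RPKM over the 6 samples (9351, leaving out 1811) were tested with limma 3.58.1 (R 4.3.3; log2(RPKM + 1), a mean-variance trend in eBayes), two-sided, with Benjamini-Hochberg adjustment over all tested genes. Ratios of related genes were compared by exact permutation of samples. Depth was recovered from the step that 1 read makes in low RPKM values of genes with 1 GENCODE M21 transcript. Of the 32 to 53 values used per library, 81.2% to 91.9% came within 0.1 of whole reads. At a depth fixed in advance 20% would by chance, but depth was chosen for this closeness. A score of closeness was 6.3 to 8.3, and 2.28 to 3.67 when transcript lengths were exchanged among genes and depth chosen again. Reads recovered in this way include PCR copies, so they set only a lower limit on error. Both steps were tested on simulated data. Promoter windows came from RefSeq, GRCm38.p6, which had entries for 8 of the 9 genes. The alternatives changed pseudocount, filter, scaling, variance model, samples, a heat-shock covariate and the trend with transcript length (longest protein-coding GENCODE M21 transcript). Members, lists and alternatives were chosen with earlier results of these data known. Named genes were all members, each list's genes with an adjusted p under 0.05 (otherwise the 2 with the lowest p), the 3 most and 3 least like Ubash3b, and the sort checks. Figures were drawn with matplotlib 3.10.9.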

Additional observations from a re-analysis of the deposited data

How the results depend on the processing

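Member differences and counts of calls were recomputed in 20 alternative fits, of which 6 left out 1 library; Ptpn11, Inpp5a, Dusp22 and Lair1 were tested in 19 of them, Ptprj only with no filter, and the 3 ratios were recomputed in 10. List medians, shares, motif counts and correlations were not recomputed. The number of the 9 genes with an adjusted p under 0.05 was 1 as reported, 0 to 1 when 1 library was left out, 0 without both libraries numbered 2 and 2 with array quality weights. Over all genes tested, 369 genes passed as reported, 133 to 315 when 1 library was left out, 101 without both libraries numbered 2, 202 with a mean RPKM of at least 5, 686 with the heat-shock covariate and 1282 with array quality weights. The filter leaves fewer genes and the left-out libraries fewer samples; the cause of the other changes was not tested. Of the calls as reported, 62.3% were higher in GFP-hi, against 52.1% with trimmed mean of M values and 48.8% with the transcript length trend removed. The signs of Ubash3b, Ptpn7, Ptpn6 and Ubash3a held in each alternative. Signs turned only for genes with no call. Ptpn2 was -0.0207 in the 4 libraries with more olfactory and vomeronasal receptor RNA (without GFP-hi replicate 2 and GFP-lo replicate 1) and -0.00625 to 0.0984 when 1 library was left out. The levels of that receptor RNA are not given here. GFP-hi replicate 2 and GFP-lo replicate 1 were also the deepest libraries, at 33950000 and 35940000 reads. The others had 26160000 to 29460000 reads. Ptpn11 was -0.0456 without both libraries numbered 2. Ptpn22 was 0.0134 with array quality weights, 0.0198 in the 4 libraries and -0.0128 to 0.0209 when 1 library was left out, with 0.0015 without GFP-hi replicate 1. Inpp5d was 0.0733 with array quality weights, 0.0044 without both libraries numbered 2, 0.119 in the 4 libraries and -0.0858 to 0.0693 when 1 library was left out, with 0.0288 without GFP-lo replicate 1. The 3 ratios kept their signs. No paired analysis was run because the labels give the groups no shared replicate numbers: those used here follow the order of the records. Some genes did vary alike over same-numbered libraries. Nr4a1 had 56.6, 90.9 and 37.0 RPKM in GFP-hi and 63.1, 84.9 and 33.8 RPKM in GFP-lo libraries 1, 2 and 3. The unpaired fit counts such variation as residual spread. Whether these libraries belong together was not tested.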
